A study of Mus musculus with 22 samples.

Results

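The metabotropic glutamate receptors examined here are encoded by 6 genes, Grm2, Grm3, Grm4, Grm5, Grm7 and Grm8, taken by symbol from a table of 37786 genes. Each of the 6 was matched to 1 row. RNA sequencing gave their expression in the anterior cingulate cortex (ACC), dissected as bulk tissue, from 22 adult male wild-type C57BL/6J mice. All mice had received, in the basolateral amygdala (BLA), an AAV5 virus that drives a channelrhodopsin fused to EYFP from the CaMKIIa promoter, and all carried an optic fiber in the ACC on one side. In 10 stimulated mice (stim), blue light was given to the BLA terminals over 9 sessions, and in 12 controls (ctrl) the procedure was the same with the light off. The fiber was unilateral while the ACC was collected from both sides, so each stimulated library mixes the side with the fiber and the side without it. In such bulk libraries, fewer cells of a type and less RNA per cell cannot be told apart.

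Metabotropic glutamate receptors are G protein-coupled receptors that act as dimers and bind glutamate through a large extracellular domain. Group I receptors, here mGlu5, couple to Gq and phospholipase C and lie mostly at the rim of the postsynaptic site, where Homer proteins link them to intracellular calcium stores. Group II (Grm2, Grm3) and group III (Grm4, Grm7, Grm8) receptors couple to Gi/o, lower cyclic AMP and act largely as brakes on transmitter release. In cortex, mGlu3 and mGlu5 are known in astrocytes as well as in neurons, mGlu2 is mainly neuronal, and mGlu7 sits in the presynaptic active zone.

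The genes are spread over 5 chromosomes of GRCm38. Grm5 lies on the plus strand at chr7:87584168-88134907. Grm2 and Grm3 lie on the minus strand at chr9:106643095-106656082 and chr5:9485541-9725170. Grm4 lies on the minus strand at chr17:27422387-27521403. Grm7 (plus strand, chr6:110645581-111567230) and Grm8 (minus strand, chr6:27275119-28135178) share a chromosome but are far apart. Exons of Grm2 overlap Gm28111 on the other strand over 470 bases, those of Grm7 overlap Gm20387 over 130 bases, and those of Grm8 overlap Mir592 over 96 bases. Strand use in the counting is not given in the sources used here, so reads in these overlaps cannot be told apart from those of the partner.

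The coding sequences carry the division into groups, which the choice of genes did not use. Aligned codon by codon, the 3 group III genes shared 68.0 to 68.4% of their bases with each other, and Grm2 and Grm3 shared 65.9%. All other pairs shared 51.2 to 55.7%. Over the whole coding sequences, the longest unbroken run of bases that any 2 of them shared was 27 (Grm3 and Grm4).

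Total counts ranged from 24563116 to 36542883 in controls and from 23090483 to 43668462 in stimulated mice. The labels number the libraries, and numbers 1 to 11 (6 ctrl, 4 stim) stood apart from numbers 12 to 23 (6 ctrl, 6 stim) in much of the transcriptome. The labels do not say what this split is, and it is called here the run of library numbers. Mitochondrial genes took 1.63 to 4.81% of counts in the first run and 0.98 to 1.90% in the second. Summed markers of excitatory neurons were well detected in every mouse (3327 to 7653 CPM, counts scaled to a common library size), whereas striatal markers summed to 117 to 199 CPM. Oligodendrocyte markers summed to 3331 to 20089 CPM in controls and 2251 to 6059 CPM in stimulated mice, with the highest values in controls 9 and 11.

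Whether repeated activation of the BLA–ACC pathway altered receptor expression was examined in edgeR by quasi-likelihood, with the run in the model and Benjamini-Hochberg adjustment over 17524 genes. None of the 6 receptor genes passed an adjusted p of 0.05 (0 of 6), against 0% of all genes. At an unadjusted p under 0.05 the count was again 0 of 6, against 11.5% of all genes. The smallest adjusted p of any gene was 0.241. Other models gave few calls as well. At an adjusted p under 0.05, the DESeq2 Wald test called 0 of 6 receptors and 0.188% of all genes (33 genes), and limma voom 0 of 6 and 0.00571% (1 gene). At an unadjusted p under 0.05 these tools gave 0 of 6 receptors each, against 12.5% and 16.3% of all genes. The fit without the run gave 0 of 6 against 3.61%, and the fit with replicate number and run (replicates 1 to 10) 0 of 6 against 11.3%. The fit with the replicate number in place of the run, over replicates 1 to 10 of each group, gave 1 of 6 (Grm8) against 7.37%. The 95% confidence intervals of the 6 receptor differences lay between -0.35 and 0.33 on the log2 scale.

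Grm5, the group I receptor, had 70.9 to 201 CPM in controls (median 104) and 57.4 to 224 CPM in stimulated mice (median 145). The groups overlapped almost fully. Its log2 fold change, stimulated minus control within runs, was -0.083 (SE 0.11, 95% CI -0.30 to 0.13, adjusted p = 0.788, edgeR). Of the libraries, 6 of 10 stimulated and 6 of 12 control ones belonged to the second run, in which Grm5 was higher, and with the run left out of the model the log2 fold change was 0.079.

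Among the group II receptors, Grm2, a presynaptic autoreceptor of glutamatergic terminals, had 77.2 to 186 CPM in controls (median 112) and 72.6 to 207 CPM in stimulated mice (median 148). Its log2 fold change was 0.061 (SE 0.092, 95% CI -0.13 to 0.25, adjusted p = 0.828, edgeR). Grm3 had 115 to 292 CPM in controls (median 190) and 102 to 318 CPM in stimulated mice (median 226). Stimulated mice were both the lowest and the highest of the series for Grm3, and the log2 fold change was -0.020 (SE 0.090, 95% CI -0.20 to 0.16, adjusted p = 0.952, edgeR).

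Among the group III receptors, Grm4 had 9.01 to 52.2 CPM in controls (median 21.5) and 8.20 to 38.5 CPM in stimulated mice (median 29.0). Its log2 fold change of -0.16 (SE 0.095, 95% CI -0.35 to 0.038, adjusted p = 0.527, edgeR) became -0.088 without control 9, which had the highest Grm4 of the series (52.2 CPM), and -0.059 by limma voom. Grm7, the presynaptic receptor with low affinity for glutamate, had 41.4 to 91.7 CPM in controls (median 57.9) and 40.3 to 89.7 CPM in stimulated mice (median 73.0), with a log2 fold change of -0.036 (SE 0.067, 95% CI -0.17 to 0.10, adjusted p = 0.864, edgeR). Its interval was the narrowest, and its biological coefficient of variation, the scatter between mice beyond counting error, was 0.112, with 16.6% of genes lower. Grm8 had 26.6 to 53.8 CPM in controls (median 38.9) and 33.1 to 59.0 CPM in stimulated mice (median 41.7). Its log2 fold change was 0.13 (SE 0.097, 95% CI -0.072 to 0.33, adjusted p = 0.615, edgeR). In the second run 5 of 6 stimulated mice lay above the control median of that run, and in the first 2 of 4. For all 6 genes the groups overlapped, over all mice and within each run. Groups that did not overlap were found for 0.00571% of all genes over all mice, 1.29% in the first run and 0.548% in the second.

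**Figure D1:**
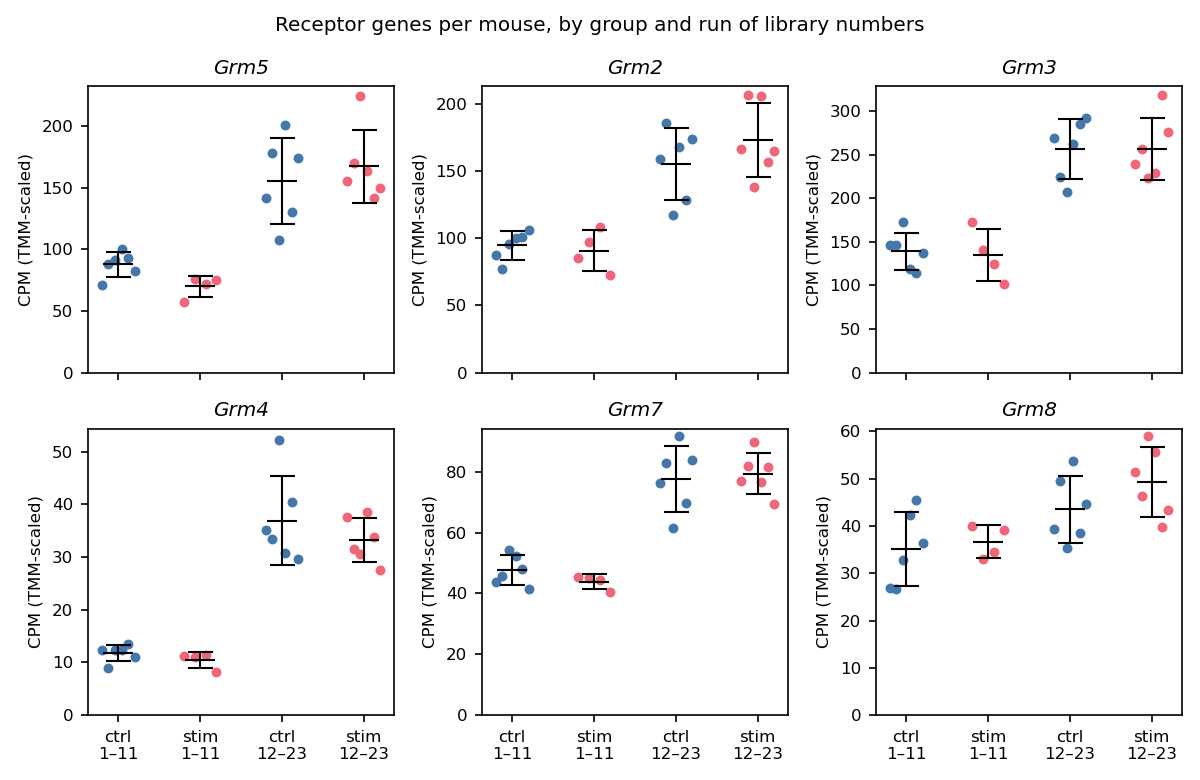
Receptor expression in each mouse, as CPM scaled by TMM library sizes, for controls (blue) and stimulated mice (red) of library numbers 1 to 11 and 12 to 23. Points are mice and black bars show the mean ± SD (n = 6, 4, 6 and 6 from left to right). Controls and stimulated mice overlap within each run, whereas the means of all 6 genes are higher in the second run, Grm4 lying at 8.20 to 13.4 CPM in the first and 27.5 to 52.2 CPM in the second.

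The position of the stimulated mice differed most between the runs for Grm5. In the first run, Grm5 was 87.7 ± 10.1 CPM in controls (SD, n = 6) and 69.9 ± 8.52 CPM in stimulated mice (SD, n = 4). In that run 0 of 4 stimulated mice lay above the control median, as was also the case for Grm4 and Grm7. The log2 fold change in that run was -0.31 (95% CI -0.55 to -0.077), with an unadjusted p of 0.0131 and an adjusted p of 0.805 (edgeR), and 5.56% of all genes had an unadjusted p under 0.05 there. In the second run, Grm5 was 155 ± 34.8 CPM in controls and 167 ± 29.6 CPM in stimulated mice (SD, n = 6 each), with 3 of 6 stimulated mice above the control median, a log2 fold change of 0.077 (95% CI -0.23 to 0.38, adjusted p = 0.863, edgeR). The difference between these effects, tested as an interaction, was 0.43 (SE 0.20, 95% CI 0.029 to 0.84, unadjusted p = 0.0367, adjusted p = 0.607, edgeR). It did not pass the adjusted threshold, 8.01% of all genes reached an unadjusted p under 0.05 in the interaction, and for the other 5 receptors the lowest unadjusted p was 0.251. Grm4 showed the same direction in both runs (log2 fold change -0.15 and -0.19), as did Grm8 (0.077 and 0.15) and Grm3 (-0.033 and -0.032). So did Grm7 (-0.11 and -0.0021), and none of these genes passed the test within a run.

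**Figure D2:**
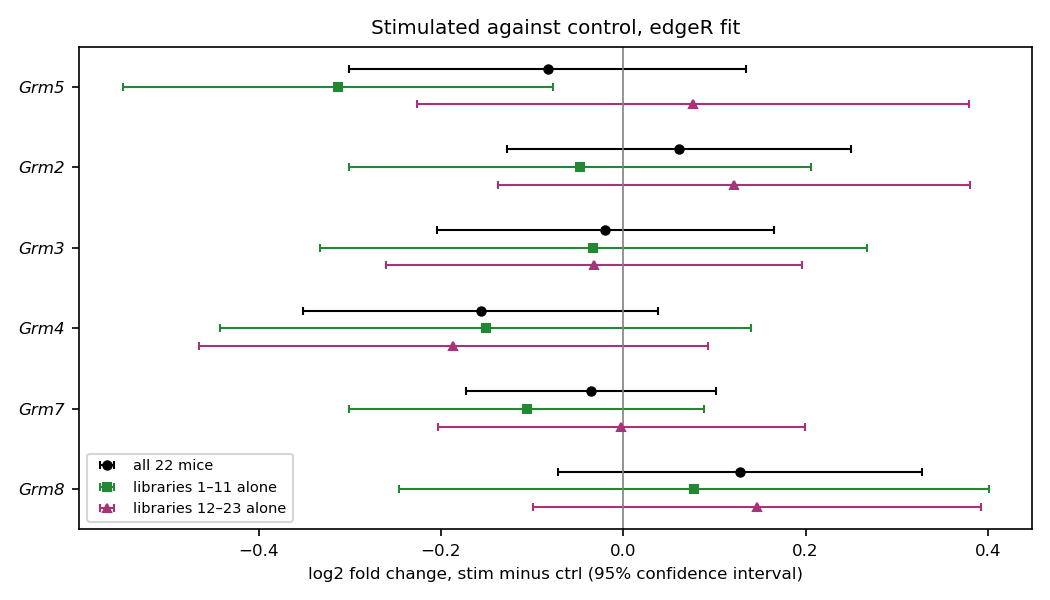
Difference between stimulated and control mice for each receptor gene, as log2 fold change with its 95% confidence interval from edgeR, over all 22 mice with run as a covariate (circles) and in each run alone (squares and triangles). All intervals over 22 mice include 0, and of the others only that of Grm5 in libraries 1 to 11 (-0.55 to -0.077) does not.

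By contrast, the run of library numbers separated the receptor genes. In the same fit, all 6 were higher in libraries 12 to 23 (6 of 6 at adjusted p under 0.05, edgeR), where 68.1% of all genes were called in either direction and 33.7% were called higher. A call in this comparison is thus common, and what varied among the receptors was its size. Grm4 had 8.20 to 13.4 CPM in the first run (median 11.3) and 27.5 to 52.2 CPM in the second (median 33.5), with no overlap. Its fold difference was 3.15 (95% CI 2.74 to 3.63, adjusted p = 1.52e-13, edgeR), and 88 of 17524 genes had a difference at least as high.

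Grm5 was 2.02-fold higher in the second run (95% CI 1.73 to 2.36), Grm3 1.87-fold (1.64 to 2.13), Grm2 1.75-fold (SE 0.093 on the log2 scale) and Grm7 1.71-fold (1.55 to 1.88). For these 4 genes and Grm4, every mouse of the second run lay above every mouse of the first, a pattern found for 13.9% of all genes. Grm8 differed least, by 1.28-fold (95% CI 1.12 to 1.48, adjusted p = 0.00202, edgeR), with 6 of 12 mice of the second run above the highest mouse of the first. The share of mitochondrial counts also differed between the runs, as did several cell type markers. Of the markers of oligodendrocyte precursors, 4 of 5 were called higher in the second run and 1, C1ql1, lower (median log2 difference 1.35). The excitatory neuron markers, of which 5 of 8 were called higher and 2 lower, summed to 3327 to 4092 CPM in the first run and 4969 to 7653 CPM in the second, with no overlap. Of the interneuron markers, 2 of 8 were called higher and 4 lower. The part of these measures in the receptor differences between the runs was not tested.

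**Figure D3:**
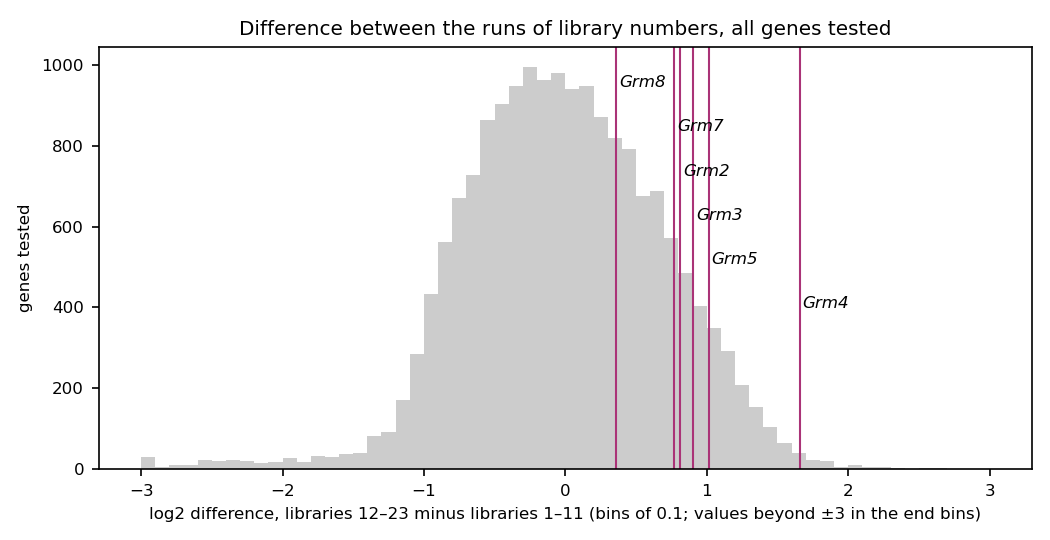
Difference between libraries 12 to 23 and libraries 1 to 11 on the log2 scale, for 17524 genes (grey histogram, genes per bin) and for the 6 receptor genes (lines). The receptors lie at 0.36 (Grm8), 0.77 (Grm7), 0.81 (Grm2), 0.90 (Grm3), 1.01 (Grm5) and 1.66 (Grm4), against a median of -0.030 over all genes.

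To compare the receptors with each other, counts were divided by the length of each gene's merged exons (reads per kilobase, RPKM). On this scale Grm3 was the most abundant, at 66.5 ± 22.0 (SD, n = 22 mice), followed by Grm2 at 27.0 ± 8.62, Grm5 at 12.2 ± 4.66, Grm7 at 10.8 ± 3.04, Grm8 at 4.20 ± 0.880 and Grm4 at 4.05 ± 2.19. Neighbours in this order were compared within mice by a two-sided sign-flip permutation test with adjustment over the 5 pairs. Grm3 exceeded Grm2 in 22 of 22 mice (2.44-fold), Grm2 exceeded Grm5 in 22 of 22 (2.27-fold), and Grm7 exceeded Grm8 in 22 of 22 (2.53-fold). Each of these had a permutation p of 1e-05, the smallest that 100000 resamples can give. The size of these steps depended on the length used, and with the coding length they were 0.60, 0.58 (21 of 22 mice) and 0.57 on the log2 scale, against 1.29, 1.18 and 1.34 with merged exons. The steps between Grm5 and Grm7 and between Grm8 and Grm4 were small.

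Grm5 exceeded Grm7 by 1.09-fold, in 15 of 22 mice (permutation adjusted p = 0.0173). The log2 difference was -0.0057 in the first run and 0.22 in the second, and dividing by the longest transcript instead gave -0.016 over all mice (permutation adjusted p = 0.728). With the coding length Grm5 exceeded Grm7 by 1.45-fold, in 21 of 22 mice (permutation adjusted p = 1.25e-05). Between Grm8 and Grm4 the permutation test showed no difference over all mice (1.19-fold, 12 of 22 mice, adjusted p = 0.122), and their order turned between the runs. Grm8 was the higher in 10 of 10 mice of the first run, by 0.94 on the log2 scale, and in 2 of 12 of the second, where its log2 difference from Grm4 was -0.32. With the longest transcript or the coding length, Grm8 exceeded Grm4 in 20 of 22 mice.

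**Figure D4:**
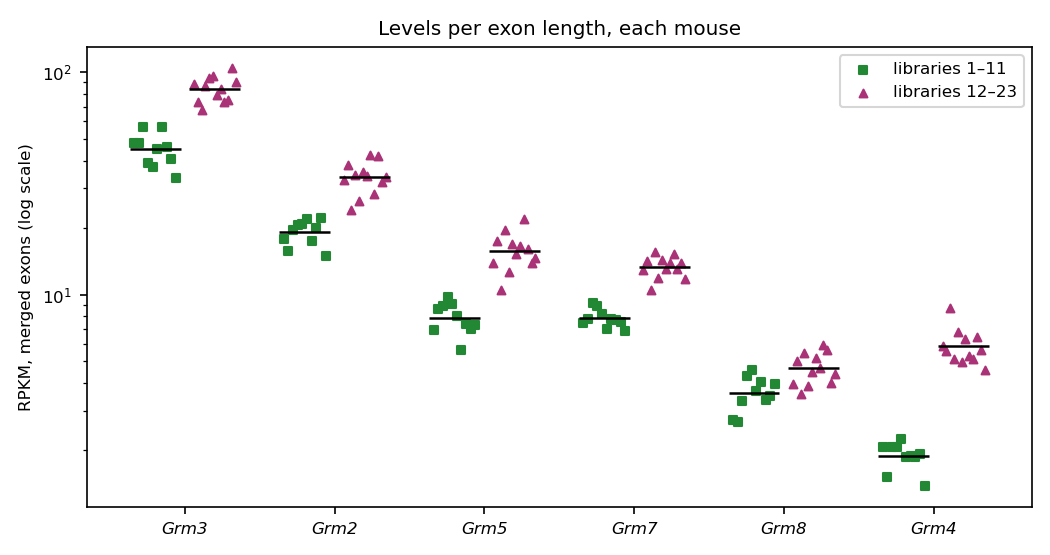
Receptor levels per kilobase of merged exons (RPKM) on a log axis, for each mouse of libraries 1 to 11 (squares) and 12 to 23 (triangles), with run means as bars. Grm3 and Grm2 lie above the others in every mouse, and on this length scale the mean of Grm4 lies below that of Grm8 in the first run and above it in the second (not with the longest transcript or coding length).

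Group II genes made up 74.9 ± 2.97% of the summed per-length level of the 6 genes (SD, n = 22), group III 15.5 ± 1.61% and Grm5 9.67 ± 1.77%. Across mice the group II share ranged from 67.8 to 79.4%, that of group III from 13.0 to 18.2% and that of Grm5 from 6.01 to 14.6%. The group II share was 74.7 ± 2.57% in controls and 75.1 ± 3.51% in stimulated mice. It was 75.0 ± 3.08% in the first run and 74.7 ± 3.00% in the second, although the levels themselves were higher there. Within group III, the share of Grm4 was 2.20 ± 0.268% in the first run and 3.80 ± 1.12% in the second, while that of Grm8 was 4.28 ± 0.955% and 2.99 ± 0.504%. These shares are descriptions on the merged exon scale and were not tested. They depend on the length used, since the mean levels of Grm3 and Grm5 were 66.5 and 12.2 with merged exons. With the coding length these means were 76.9 and 34.5.

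After the group and run means were removed, the receptors varied together in part. As a description over 22 mice that share libraries and depth, Grm5 and Grm7 had the highest Pearson's r (0.78), followed by Grm5 and Grm8 (0.63) and Grm7 and Grm8 (0.51). Grm3 stood apart from these, with r of -0.19 with Grm5, 0.23 with Grm7, -0.41 with Grm8 and 0.060 with Grm2, its partner in group II. Grm4 had an r of -0.46 with Grm5, which was -0.069 in the first run and -0.65 in the second, and its r with Grm2 was 0.73 in the first and -0.44 in the second. The pair Grm5 and Grm7 had 0.49 and 0.91, Grm5 and Grm8 0.35 and 0.85, and Grm7 and Grm8 0.26 and 0.72.

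The receptors were also set beside the cell type markers, each list scored as the mean of its centred log2 CPM. Grm3 was higher in mice with more of the astrocyte markers (10 genes including Aqp4, Gfap and Slc1a2), with r = 0.75 and 0.76 without the 2 mice farthest from the median, and with the microglial markers (6 genes), with r = 0.79. Grm8 ran the other way, with r = -0.80 for astrocyte, -0.71 for microglial and 0.63 for excitatory neuron markers. The oligodendrocyte markers had a negative r with Grm5 (-0.81), Grm7 (-0.70), Grm2 (-0.63) and Grm8 (-0.52), a positive one with Grm4 (0.52) and one of -0.013 with Grm3. Without the 2 farthest mice these became -0.68, -0.45, -0.36, -0.43, 0.15 and 0.26. Grm4 also had an r of 0.52 with the interneuron markers, and 0.64 without the 2 mice farthest from their median. With the group and run means left in, that r was -0.43. The mitochondrial share had its largest r with the same pair of genes as the astrocyte markers, at 0.63 for Grm3 and -0.63 for Grm8. For the others it was -0.40 (Grm4), -0.34 (Grm2), -0.23 (Grm5) and -0.064 (Grm7). With the group and run means left in, the r of this share was -0.49 for Grm3, -0.81 for Grm8 and -0.76 to -0.69 for the others. This share was lower in stimulated mice, at 2.25 ± 0.429% against 2.93 ± 1.40% in controls of the first run and 1.18 ± 0.314% against 1.46 ± 0.390% in the second (SD), a difference that was not tested. These are descriptions, and the part of tissue composition or RNA quality in the receptor levels was not tested.

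**Figure D5:**
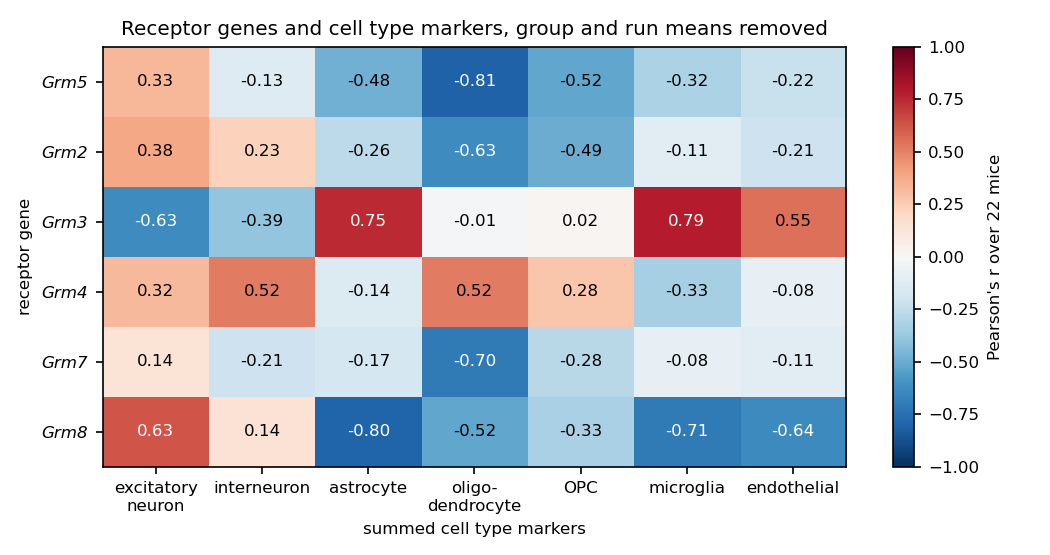
Pearson's r over 22 mice between each receptor gene and marker scores of 7 cell types, on log2 CPM after removal of group and run means. Each score is the mean of the centred log2 CPM of a marker list, although the axis calls the markers summed. Grm3 and Grm8 show opposite signs for astrocyte (0.75 and -0.80), microglial (0.79 and -0.71) and excitatory neuron markers (-0.63 and 0.63), and Grm5 is lowest for oligodendrocyte markers (-0.81).

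Between the groups, 0 of 10 astrocyte markers and 0 of 6 microglial markers had an unadjusted p under 0.05, against 11.5% of all genes. The estimates of the astrocyte markers were nevertheless lower in stimulated mice for 10 of 10 genes (median log2 fold change -0.16), and those of the microglial markers for 2 of 6 (median 0.037). At that threshold 3 of 8 interneuron markers were higher, as were 2 of 8 excitatory neuron markers, with 1 lower. Of all genes 6.05% were higher and 5.45% lower. Of 4 choroid plexus markers tested, 2 were lower, and 0 of 5 oligodendrocyte precursor and 0 of 5 endothelial markers were called. Of the oligodendrocyte markers, 10 of 10 had an unadjusted p under 0.05, all lower in stimulated mice (median log2 fold change -0.69), against 5.45% of all genes in that direction, with 0 of 10 at an adjusted p under 0.05 in edgeR. Their summed level was 3331 to 6452 CPM in controls and 3498 to 6059 CPM in stimulated mice of the first run. In the second run it was 3555 to 20089 CPM against 2251 to 4460 CPM. Their interactions of group and run were -1.58 to -1.03 on the log2 scale, none passing adjustment. Marker results without controls 9 and 11 are not given here. The part of these markers in the receptor differences was not tested. With controls 9 and 11 left out, the log2 fold change was -0.18 for Grm5 (unadjusted p = 0.0539, adjusted p = 0.614, edgeR), -0.050 for Grm4, -0.017 for Grm2, -0.030 for Grm3, -0.092 for Grm7 and 0.074 for Grm8. In that fit 0 of 6 receptors had an adjusted p under 0.05, against 0.00571% of all genes (1 gene), and 0 of 6 an unadjusted p under 0.05, against 8.16%.

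The genes whose pattern over the 22 mice was most like that of each receptor, by Pearson's r of log2 CPM with group and run means removed, were Snx10 (0.91), Negr1 (0.90) and Htr2a (0.89), the serotonin 2A receptor, for Grm5. For Grm2 they were Itpka (0.93), an inositol trisphosphate kinase, Slc30a3 (0.87), the transporter that loads zinc into synaptic vesicles, and Stx1a (0.87), a presynaptic syntaxin. For Grm3 they were Rin2 (0.88), Car8 (0.86) and Sirt3 (0.84), a mitochondrial deacetylase. Grm4 was most like Fyn (0.78), a Src-family kinase, Washc2 (0.77) and Cnnm2 (0.77). Grm7 was most like Klhl23 (0.82), Cdh11 (0.82) and Glce (0.82), and Grm8 most like Epha5 (0.91), an ephrin receptor, D130043K22Rik (0.90) and L1cam (0.89), an axonal adhesion molecule. Likeness within runs did not carry over to the difference between them in every case. With the means left in, Grm2 and Itpka had an r of -0.38, Grm5 and Snx10 of -0.23, and Grm3 and Sirt3 of -0.39, whereas Grm5 and Htr2a had 0.96.

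The wider pathway was examined through 92 genes that bind the receptors or carry their signal. Of these, 59 had a higher and 33 a lower estimate in stimulated mice, 11 and 3 of them at an unadjusted p under 0.05 (against 6.05% and 5.45% of all genes), and 0 at an adjusted p under 0.05 (smallest 0.329, edgeR). Their median log2 fold change was 0.037, against 0.0093 over all genes. In the first run alone, 46 estimates were higher and 46 lower, and in the second 60 and 32. At an unadjusted p under 0.05, the first run gave 1 higher and 4 lower, against 2.21% and 3.34% of all genes, and the second 10 and 3, against 4.06% and 8.3%. Without controls 9 and 11 these counts were 5 and 2, against 4.75% and 3.41%, and without the run in the model 2 and 2, against 0.999% and 2.61%. A model with run and a surrogate variable gave 17 and 5, against 9.96% and 6.65%, or 16.6% of all genes in either direction. By role, an unadjusted p under 0.05 was reached by 3 of 19 binding partners, 2 of 18 genes of Gq signalling, 5 of 26 of Gi/o signalling, 0 of 7 of receptor desensitisation, 2 of 6 of N-acetylaspartylglutamate (NAAG) metabolism and 2 of 16 of synaptic plasticity linked to these receptors. The values that follow are estimates that did not pass adjustment.

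Among the scaffolds of mGlu5, Homer1 was 146 ± 35.1 CPM in controls (SD, n = 12) and 143 ± 66.4 CPM in stimulated mice (SD, n = 10), with a log2 fold change of -0.16 (adjusted p = 0.617, edgeR). Homer2 was at -0.034 and Homer3 at -0.14. Tamalin, listed under its older symbol Grasp, is a scaffold of group I receptors and had a log2 fold change of 0.28 (unadjusted p = 0.0243, adjusted p = 0.375, edgeR). Neurochondrin (Ncdn), a regulator of mGlu5 signalling, was at 0.13.

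The partners of group III receptors include Pick1, which anchors mGlu7, and the transsynaptic proteins Elfn1 and Elfn2. Pick1 had a log2 fold change of 0.0062 (95% CI -0.13 to 0.14). Elfn1 was at 0.077 and Elfn2 at 0.18 (unadjusted p = 0.0467, adjusted p = 0.427, edgeR). Both Elfn genes shared the higher level of the receptors in the second run, by 0.91 and 1.14 on the log2 scale. Calm3, a calmodulin gene, was at 0.14 (unadjusted p = 0.0379, adjusted p = 0.412, edgeR).

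NAAG is a peptide transmitter with action at mGlu3, and glutamate carboxypeptidase II, encoded by Folh1, degrades it. Folh1 was 9.89 ± 3.79 CPM in controls (SD, n = 12) and 7.13 ± 1.92 CPM in stimulated mice (SD, n = 10), with a log2 fold change of -0.51 (SE 0.17, 95% CI -0.86 to -0.16, unadjusted p = 0.00567, adjusted p = 0.333, edgeR). Naaladl1, a related peptidase, was at -0.65 from a level under 1 CPM (adjusted p = 0.353, edgeR). Rimklb, an NAAG synthetase, was at 0.16. The oligodendrocyte markers were lower in the same mice, and their part in the Folh1 value was not tested.

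Of the G proteins, Gnaq, which transmits group I signals, was at 0.051, and Gnao1, the main Go subunit of brain, at 0.013 (95% CI -0.084 to 0.11). The smallest p values belonged to subunits of the βγ dimer, with log2 fold changes of 0.27 for Gng3 (unadjusted p = 0.00279, adjusted p = 0.329, edgeR) and 0.21 for Gnb2 (unadjusted p = 0.00519, adjusted p = 0.329, edgeR). Gnb4 was at 0.24, and the remaining βγ subunits of the pathway lists ranged from -0.064 to 0.13, none at an unadjusted p under 0.05. Rgs2, which limits Gq signalling, was at 0.24, and Rgs14 at 0.23. Adcy1, an adenylyl cyclase that Gi-coupled receptors restrain, was at -0.17 between the groups (adjusted p = 0.412, edgeR) and 1.62 higher on the log2 scale in the second run, close to the 1.66 of Grm4. Mapk3, an extracellular signal-regulated kinase, was at 0.21 and Nptx2, a synaptic pentraxin, at 0.29.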

How the data were processed

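The authors trimmed single-end reads (cutadapt 1.10), aligned them to mm10 (STAR 2.5.3a) and counted unique alignments per Ensembl gene (HTSeq 0.6.1p1). The deposited table holds raw counts, the same counts divided by the authors' size factors (a signal without depth), and the authors' own comparison (log2 fold changes, p-values, adjusted p-values), which was not used. No other per-sample column was present (0). Counts were tested in edgeR 4.0.16 (R 4.3.3, TMM, quasi-likelihood, at least 10 counts in at least 10 mice). The study's methods name batch and RNA integrity as covariates. These methods describe 2 batches of mice and refer to per-mouse values of both covariates, which were not used here. The labels give neither, so the run of library numbers was fitted, without RNA integrity. DESeq2 1.42.0, limma 3.58.1 and sva 3.50.0 were alternatives. Standard errors are the log2 fold change over the square root of F, and the scripts were tested on simulated data. Correlations used log2 CPM with a prior count of 2. All 231 library pairs differed by more than sampling noise (mean chi-square per gene at least 9.98). Of 37786 identifiers, 37772 were found in GENCODE M21.

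The genes named are the 6 receptors, 12 fixed partners, up to 10 further pathway genes with the smallest p under 0.05, and 3 genes most like each receptor. The receptors and lists were chosen with earlier results of these data known. The fit without controls 9 and 11 was chosen after seeing the data. A planned comparison of proteins was replaced by one of coding sequences (Biopython 1.88). Other receptors of the family are not reported here. Replicates are different mice. Same-numbered mice had a mean correlation of 0.308 in their deviations, the lowest being -0.367, and the labels name no shared litter or day, so the numbers were not taken to pair them.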

Additional observations from a re-analysis of the deposited data

Results flagged for a closer look

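Dixon's test was applied to the 6 receptors in groups of 4 to 10 mice within and across the runs of library numbers (30 tests, of which chance would mark about 1 in 20). It singled out 2 mice. Stimulated replicate 4 of the first run had 8.20 CPM of Grm4, against 11.1 to 11.4 CPM in the other 3 stimulated mice of that run. Stimulated replicate 7 of the second run had 224 CPM of Grm5, against 142 to 170 CPM in the other 5. Leaving out stimulated replicate 7 gave the Grm5 log2 fold change of -0.15 that was the lowest of the 22 fits with 1 mouse left out.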

How the results depend on the processing

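The count of receptors at an adjusted p under 0.05 was 0 under every alternative run. At an unadjusted p it was 1 with the replicate block alone, over replicates 1 to 10 (Grm8, 0.20, p = 0.0478, adjusted p = 0.675, edgeR) and 1 in the first run alone (Grm5). The replicate block alone turned Grm3 to 0.19, Grm4 to 0.16, Grm5 to 0.097 and Grm7 to 0.11, with 1291 genes at an unadjusted p under 0.05 against 2015, and replicates 5 and 6 pair mice of different runs. Same-numbered mice correlated above 0.1 in 8 of 10 pairs, and 3 of 10 matched their own number best, but with the run means removed 3 of 10 pairs were above 0.1 (-0.13 to 0.27). The block with the run turned no receptor. Without the run, Grm3 was 0.072, Grm5 0.079 and Grm7 0.056, with 632 genes. In the first run alone Grm2 was -0.047, with 974 genes. In the second alone Grm5 was 0.077. With controls 9 and 11 left out Grm2 was -0.017. Limma voom gave a Grm3 interaction of -0.052. With 1 mouse left out, Grm3 ranged from -0.073 to 0.028 and was turned to 0.011, 0.00086 and 0.028 without control 3, control 12 and stimulated replicate 4. The other receptors kept their sign in these 22 fits, with Grm2 from 0.019 (without control 9) to 0.11 (without stimulated replicate 4), Grm4 from -0.19 to -0.088 (without control 9), Grm5 from -0.15 to -0.030 (without stimulated replicate 1), Grm7 from -0.071 (without control 9) to -0.011 (without control 10) and Grm8 from 0.095 to 0.17. Genes at an adjusted p under 0.05 numbered 33 by the DESeq2 Wald test, 1 by limma voom, 1 with controls 9 and 11 left out, and 0 to 1 with 1 mouse left out (1 without control 9). At an unadjusted p they numbered 3687 with no count minimum and 1561 to 2489 with 1 mouse left out. Pathway genes at an unadjusted p numbered 14, against 22 with a surrogate variable (where all genes so called numbered 2910), 4 without the run, 5 in the first run alone, 7 with controls 9 and 11 left out, and 10 to 17 with 1 mouse left out. The log2 difference of Grm5 over Grm7 was -0.016 with the longest transcript and 0.53 with the coding length, and Grm8 exceeded Grm4 by 0.92 with that length and 0.98 with the coding length. Of 18 like genes, Spearman's rho kept 9 and leaving the means in kept 2.

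The intervals over 22 mice leave receptor differences of up to 0.35 (log2) undetermined. Per-mouse RNA integrity and batch were not analysed here, the labels do not say what the 2 runs are, and the causes of the turned signs were not tested.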
